A study of Mus with 12 samples.

Results

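The Notch genes examined here were 4 ligands (Dll1, Dll4, Jag1 and Jag2), 4 receptors (Notch1, Notch2, Notch3 and Notch4) and 2 target genes (Hes1 and Hey1), 10 genes of the 32078 gene names that had Ensembl transcripts in both deposited tables. They were chosen as the named core of the pathway, each taken from the row that carried its gene name and at least 1 Ensembl transcript, and each had 1 such row in either table. The libraries came from the whole uterus of pregnant ICR mice, an outbred strain, aged 8 weeks, with 1 mouse per library and 3 mice per group. The groups differed in the day after mating at which the uterus was taken. E0.5 and E4.5 bracketed embryo implantation, E15.5 and E18.5 preceded labor, and the study chose both pairs of days by the progesterone levels of pregnancy. The labels name no agent and no altered allele in any group.

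In Notch signaling a Delta-like or Jagged ligand on 1 cell binds a Notch receptor on its neighbour, the receptor is cleaved by ADAM proteases and then by gamma-secretase, and its freed intracellular domain joins Rbpj in the nucleus to switch on genes such as Hes1 and Hey1. In blood vessels Dll4, Jag1, Notch1 and Notch4 are known from endothelial cells and Notch3 from pericytes and vascular smooth muscle, and in the uterus the pathway is known for its part in decidualization and in the growth of decidual vessels. A whole uterus mixes muscle, stroma, epithelium, vessels and immune cells, so fewer cells of a type and less RNA per cell cannot be told apart in these values.

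The counts of the 6 implantation libraries summed to between 58020989 and 70906881, while the depth of the 6 labor libraries is unknown because their table holds FPKM (fragments per kilobase of transcript, scaled to the library total) alone. Markers of smooth muscle and of stroma were present in all 12 libraries. E4.5 replicate 3 stood apart: the 10 ovary markers summed to 907 FPKM in it against 5.61 to 8.27 FPKM in the other 5 implantation libraries, its 6 oviduct markers summed to 95.2 FPKM against 5.15 to 21.5 FPKM, and its 8 smooth muscle markers summed to 208 FPKM against 804 to 1221 FPKM. E15.5 replicate 1 had the lowest summed level of the 6 yolk sac markers in the labor table, 10.3 FPKM against 170 to 1074 FPKM, and the highest sum of the 6 uterine NK cell markers, 963 FPKM against 25.4 to 461 FPKM. For the Notch results that lean on these 2 libraries the values without them are given as well.

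Around implantation 1 of the 10 Notch genes, the ligand gene Jag2, met the criterion of the study (a log2 fold change of at least 1 in size and an unadjusted p under 0.05), with less transcript at E0.5 than at E4.5. By the same criterion 12.2% of all 59732 rows tested were called, 6.37% higher and 5.82% lower at E0.5, so 1 in 10 is close to the background. None of the 10 passed an adjusted p of 0.05 (edgeR quasi-likelihood test with Benjamini-Hochberg adjustment), against 1.22% of all rows, and 3 of 10 (Jag2, Notch1 and Notch2) had an unadjusted p under 0.05, against 17% of all rows. Libraries of the 2 days did not overlap for 4 of the 10, against 25.2% of all rows: Notch1 and Notch2 were the higher at E0.5 (12.8% of all rows were), and Jag1 and Jag2 the lower (12.5%). Of the 10, 4 had a positive fitted change, against 49.6% of all rows, and the median log2 fold change, E0.5 minus E4.5, was -0.08 over the 10 genes and -0.01 over all rows. Without E4.5 replicate 3, 1 of the 10 (Jag2) met the criterion against 14.4% of all rows, and 2 of the 10 (Jag2 and Notch2) passed the adjusted p in edgeR against 6.28% of all rows. The fitted change was then positive in 3 of the 10 and its median was -0.15, against 0.06 over all rows, and the days did not overlap for 4 of the 10, against 40.3% of all rows.

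Among the ligands Jag2 (chr12:112907819-112929776, minus strand, mm10), a Jagged ligand, had the largest fitted change. Its level was 1.08, 1.08 and 1.02 FPKM in E0.5 uteri and 3.17, 1.83 and 2.95 FPKM in E4.5 uteri. The E0.5 libraries lay within a narrow band below the lowest E4.5 library, replicate 2. The fitted log2 fold change was -1.31 ± 0.26 (SE, n = 3 per day; adjusted p 0.071 in edgeR). With each library left out in turn the change of Jag2 was between -1.53 and -1.12 and met the criterion in 6 of 6 fits, while its adjusted p ran from 0.045, without E4.5 replicate 3, to 0.24. Where counts were modelled by DESeq2 instead, the adjusted p of Jag2 was 0.00079, in a fit that put 9.74% of all rows past the adjusted p.

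**Figure D1:**
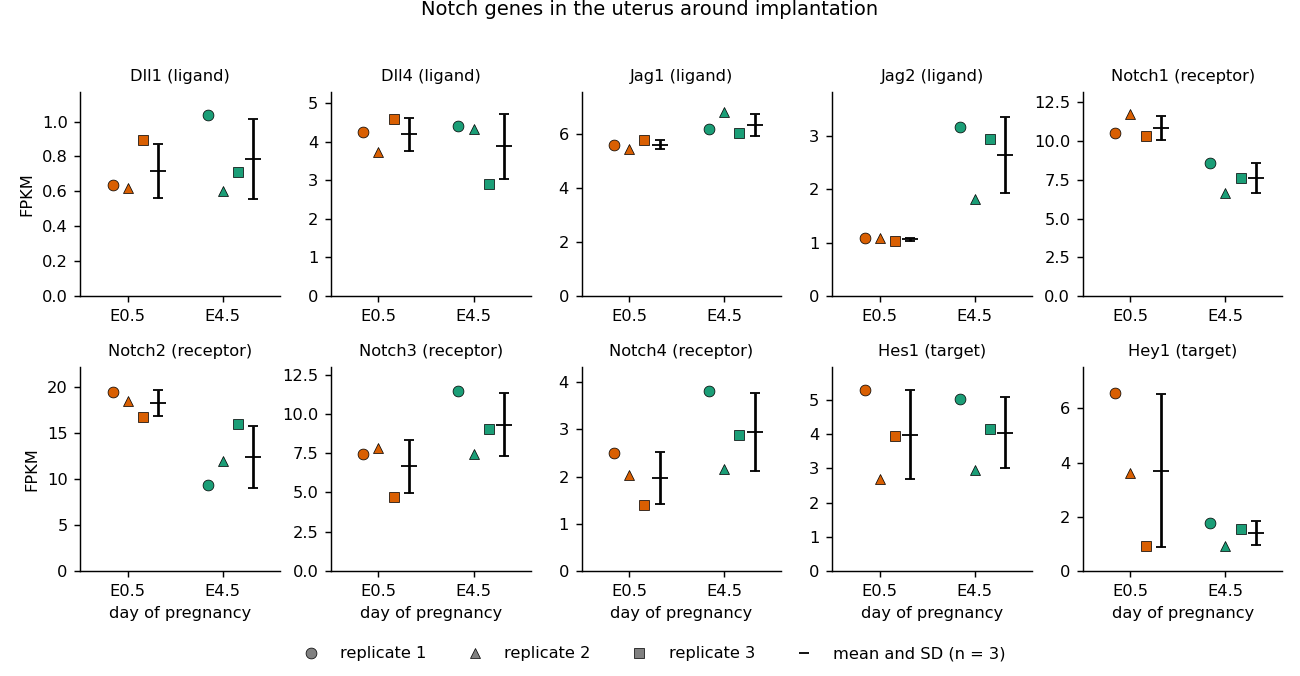
FPKM (y axis, from 0) of each Notch gene in the E0.5 and E4.5 libraries (x axis), 1 symbol per replicate, with the mean and SD of 3 mice beside them. The 3 E0.5 values of Jag2 lie at 1.02 to 1.08 FPKM, below the E4.5 values of 1.83 to 3.17 FPKM, whereas Hey1 at E0.5 runs from 0.94 to 6.57 FPKM.

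Jag1 (chr2:137081456-137116644, minus strand), the second Jagged ligand and the most abundant ligand transcript per length, was 5.61, 5.44 and 5.80 FPKM in E0.5 uteri and 6.21, 6.82 and 6.04 FPKM in E4.5 uteri. Its groups did not overlap, but the fitted change was small, with a log2 fold change of -0.17 ± 0.14 (SE, adjusted p 0.59 in edgeR). Dll4 (chr2:119325784-119335962, plus strand), the Delta-like ligand of arterial and sprouting endothelium, was 4.25, 3.72 and 4.59 FPKM in E0.5 uteri and 4.40, 4.32 and 2.91 FPKM in E4.5 uteri. Its groups overlapped, the lowest of the 6 libraries being E4.5 replicate 3, and its log2 fold change of 0.11 turned to -0.08 without that library. Dll1 (chr17:15367354-15376872, minus strand), a Delta-like ligand, was the least abundant of the 10 at E0.5, at 0.639, 0.618 and 0.893 FPKM, and had 1.04, 0.601 and 0.712 FPKM in E4.5 uteri. The Dll1 groups overlapped and its fitted change of -0.13 rested on 194 to 373 counts per library.

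The receptors fell into 2 pairs by the sign of their fitted change, with Notch1 and Notch2 above 0 and Notch3 and Notch4 below it. Notch2 (chr3:98013527-98150361, plus strand), the receptor with the highest level per length, was 19.5, 18.4 and 16.7 FPKM in E0.5 uteri and 9.28, 11.9 and 15.9 FPKM in E4.5 uteri. Its row also carries the name Gm42820, so the reads of that gene model cannot be separated from those of Notch2. The lowest E0.5 library stood just above the highest E4.5 library, which was replicate 3. The log2 fold change of Notch2 was 0.57 ± 0.21 (SE; adjusted p 0.23 in edgeR). Without E4.5 replicate 3 the change was 0.77 with an adjusted p of 0.035, the lowest of the 6 fits that left out 1 library, whose adjusted p ran up to 0.46.

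Notch1 (chr2:26457903-26503824, minus strand), the receptor best known from endothelium and from immune and epithelial progenitors, was 10.6, 11.7 and 10.3 FPKM in E0.5 uteri and 8.60, 6.66 and 7.59 FPKM in E4.5 uteri. Each E0.5 library was above each E4.5 library, with a log2 fold change of 0.52 ± 0.18 (SE; adjusted p 0.22 in edgeR). Notch3 (chr17:32120820-32166852, minus strand), the receptor of mural cells, was 7.46, 7.82 and 4.69 FPKM in E0.5 uteri and 11.5, 7.48 and 9.02 FPKM in E4.5 uteri. Its groups overlapped through E4.5 replicate 2, and its log2 fold change of -0.49 (adjusted p 0.41) was -0.29 without E0.5 replicate 3 and -0.27 without E4.5 replicate 1. Notch4 (chr17:34564268-34588503, plus strand), a receptor known mainly from endothelium, was 2.50, 2.03 and 1.40 FPKM in E0.5 uteri and 3.81, 2.15 and 2.89 FPKM in E4.5 uteri. The Notch4 groups overlapped as well, the fitted change being -0.58 (adjusted p 0.38), or -0.31 without E4.5 replicate 1.

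The shares of the receptors in their summed level did not overlap between the days, while the sum itself did. FPKM is scaled by transcript length, so the 4 receptors can be set beside each other, and their summed level was 33.1 to 40.0 FPKM at E0.5 and 28.2 to 35.4 FPKM at E4.5. Notch2 held 46.0% to 50.4% of that sum at E0.5 and 28.0% to 44.98% at E4.5, and Notch1 held 26.4% to 31.2% and 21.4% to 25.9%. Notch3 held 14.2% to 19.6% at E0.5 and 25.4% to 34.6% at E4.5, and Notch4 held 4.22% to 6.26% and 7.63% to 11.5%. The 2 days did not overlap in any of these 4 shares, and each gave p = 0.1 in a two-sided exact permutation test, which is the smallest value that 3 against 3 can give (adjusted p = 0.222 over the 20 sums and shares compared). The 4 shares of a library add up to its whole and are therefore not independent of each other. Among the ligands the share of Jag2 was 8.32% to 9.96% at E0.5 and 13.5% to 23.4% at E4.5, and that of Dll4 was 34.3% to 37.3% and 23.1% to 31.8%, again without overlap and with the same exact p of 0.1 each. The summed ligand level was 10.9 to 12.3 FPKM in E0.5 uteri and 12.6 to 14.8 FPKM in E4.5 uteri, also without overlap (exact permutation p = 0.1, adjusted p = 0.222).

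**Figure D2:**
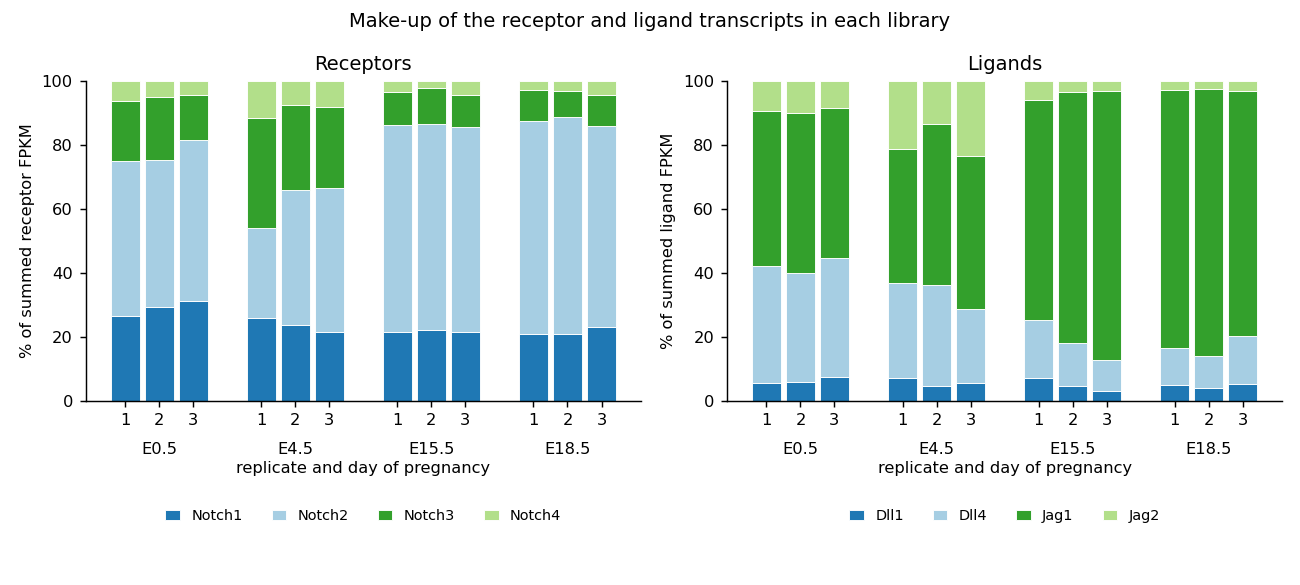
Share of each receptor (left) and each ligand (right) in the summed FPKM of its family (y axis, %), 1 bar per library, grouped by day on the x axis. Notch3 and Notch4 hold more of the receptor sum at E4.5 (25.4% to 34.6% and 7.63% to 11.5%) than at E0.5 (14.2% to 19.6% and 4.22% to 6.26%), and Jag1 holds 69.1% to 84.4% of the ligand sum at E15.5 and 76.7% to 83.8% at E18.5.

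The target gene Hes1 (chr16:30064384-30067796, plus strand), a bHLH repressor, was 5.30, 2.69 and 3.96 FPKM in E0.5 uteri and 5.04, 2.96 and 4.14 FPKM in E4.5 uteri. The days covered nearly the same range, and its log2 fold change was -0.03 ± 0.33 (SE). Hey1 (chr3:8663226-8667272, minus strand), a related repressor known from arterial endothelium, was 6.57, 3.61 and 0.940 FPKM in E0.5 uteri and 1.78, 0.926 and 1.54 FPKM in E4.5 uteri. Hey1 had the widest spread of the 10 genes, a coefficient of variation of 76.0% at E0.5, and E0.5 replicate 3 lay within the E4.5 range. The fitted change of 1.38 ± 0.65 (SE; adjusted p 0.34 in edgeR) did not meet the criterion. It was 0.70 without E0.5 replicate 1 and 1.83 without E0.5 replicate 3, where it met the criterion. In E0.5 replicate 1 the 6 oviduct markers (21.5 FPKM) and the 5 fat markers (63.8 FPKM) also had their highest sums of that day, against 6.48 to 6.95 FPKM and 21.8 to 25.1 FPKM, and their part in the Hey1 value was not tested.

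Markers of cell types that the uterus can hold were counted in the same way. Of all rows, 6.37% met the criterion higher and 5.82% lower at E0.5. Of 13 endothelial markers, 12 had a lower fitted level at E0.5, 4 met the criterion (Cdh5, Kdr, Flt1 and Emcn, all lower), 10 lay lower at E0.5 without overlap (12.5% of all rows did), and none passed the adjusted p. Their summed level was 44.2 to 56.5 FPKM at E0.5 and 73.3 to 114 FPKM at E4.5. None of the 13 was at 0, and the sum was 76.9 and 114 FPKM in the 2 E4.5 libraries other than replicate 3. Of 5 arterial markers 2 met the criterion, in opposite directions: Efnb2 was higher at E0.5 (log2 fold change 1.73, adjusted p 0.022) and Gja4 lower (-1.11, adjusted p 0.22). The 7 pericyte markers had no member that met the criterion, with sums of 83.9 to 99.0 FPKM at E0.5 and 56.4 to 159 FPKM at E4.5, where the lowest sum was that of replicate 3 and the other 2 were 105 and 159 FPKM. Of 8 epithelial markers 4 met the criterion, all higher at E0.5, with sums of 272 to 316 FPKM against 83.5 to 187 FPKM, or 130 and 187 FPKM without E4.5 replicate 3. Of 5 macrophage markers 4 met the criterion, all higher at E0.5, with sums of 31.2 to 37.6 FPKM against 17.9 to 21.3 FPKM. All 6 proliferation markers met it in the other direction, 5 of them with an adjusted p under 0.05 (1.22% of all rows had one), with sums of 4.85 to 5.78 FPKM at E0.5 against 25.7 to 38.2 FPKM. The 8 smooth muscle markers had a positive fitted change in 8 of 8, none by the criterion, with a median of 0.64, and 4 of them lay higher at E0.5 without overlap (12.8% of all rows did). Their sums were 842 to 1164 FPKM against 804 and 1221 FPKM in the 2 E4.5 libraries other than replicate 3. E4.5 replicate 3 was the lowest library for each of these markers, and for Acta2, Actg2, Cnn1 and Des E4.5 replicate 1 was the highest. Of 7 stroma markers Dcn met the criterion higher and Hand2 lower at E0.5. Hand2 overlapped between the days, at 1.67 to 2.75 FPKM against 22.0, 20.6 and 1.13 FPKM, the last in replicate 3. The stroma sums were 220 to 348 FPKM at E0.5 against 263, 291 and 103 FPKM, again with replicate 3 last. The 6 uterine NK cell markers had a negative fitted change in 6 of 6, 1 by the criterion (Gzmc), with sums of 4.89 to 11.2 FPKM against 66.9, 33.8 and 2.95 FPKM, the last in replicate 3. The part of any of these cell types in the Notch values was not tested. In all 12 libraries the 2 genes whose centred log2(FPKM + 0.1) profile lay nearest to that of Jag2, among 10868 genes searched, were Kdr, the main VEGF receptor of endothelium (root mean square difference 0.15), and Cisd3, an iron-sulfur protein gene (0.16).

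Before labor none of the 10 genes met the criterion between E18.5 and E15.5, where 6.05% of all 30928 rows tested did (3.11% higher and 2.93% lower at E18.5), and none passed the adjusted p (limma on log2(FPKM + 0.1) with Benjamini-Hochberg adjustment), where 0.0259% of all rows did. The values of most of the genes lay higher at E18.5: 8 of 10 had a positive fitted log2 fold change, E18.5 minus E15.5, against 52.3% of all rows, and the median was 0.41 over the 10 genes against 0.02 over all rows. Without E15.5 replicate 1 the fitted change was positive in 7 of the 10, against 53.8% of all rows, and the median was 0.19, against 0.03 over all rows. None of the 10 met the criterion without it either, against 5.02% of all rows. The days did not overlap for 5 of the 10 without it, against 29% of all rows. With all libraries the days did not overlap for 5 of 10, against 19.9% of all rows, with Dll1, Notch1, Notch2 and Hes1 higher at E18.5 (10.9% of all rows were) and Hey1 lower (8.96%). Hes1 was the 1 gene of 10 with an unadjusted p under 0.05, against 12.2% of all rows. The 10 genes are measured in the same 6 libraries, so their shared sign is not 10 separate observations.

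Hes1 was 7.61, 7.45 and 5.33 FPKM in E18.5 uteri and 3.83, 4.99 and 4.33 FPKM in E15.5 uteri. All E18.5 libraries were above the E15.5 libraries, although replicate 3 of E18.5 was only just so. The log2 fold change was 0.61 ± 0.19 (SE; adjusted p 0.27 in limma). It was 0.52 without E15.5 replicate 1 and between 0.52 and 0.78 whichever library was left out. Hey1 was 0.806, 0.797 and 0.636 FPKM in E18.5 uteri and 1.05, 1.07 and 0.832 FPKM in E15.5 uteri. Its days lay next to each other without overlap, with a change of -0.36 ± 0.22 (SE; adjusted p 0.56), so the fitted values of the 2 target genes had opposite signs.

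**Figure D3:**
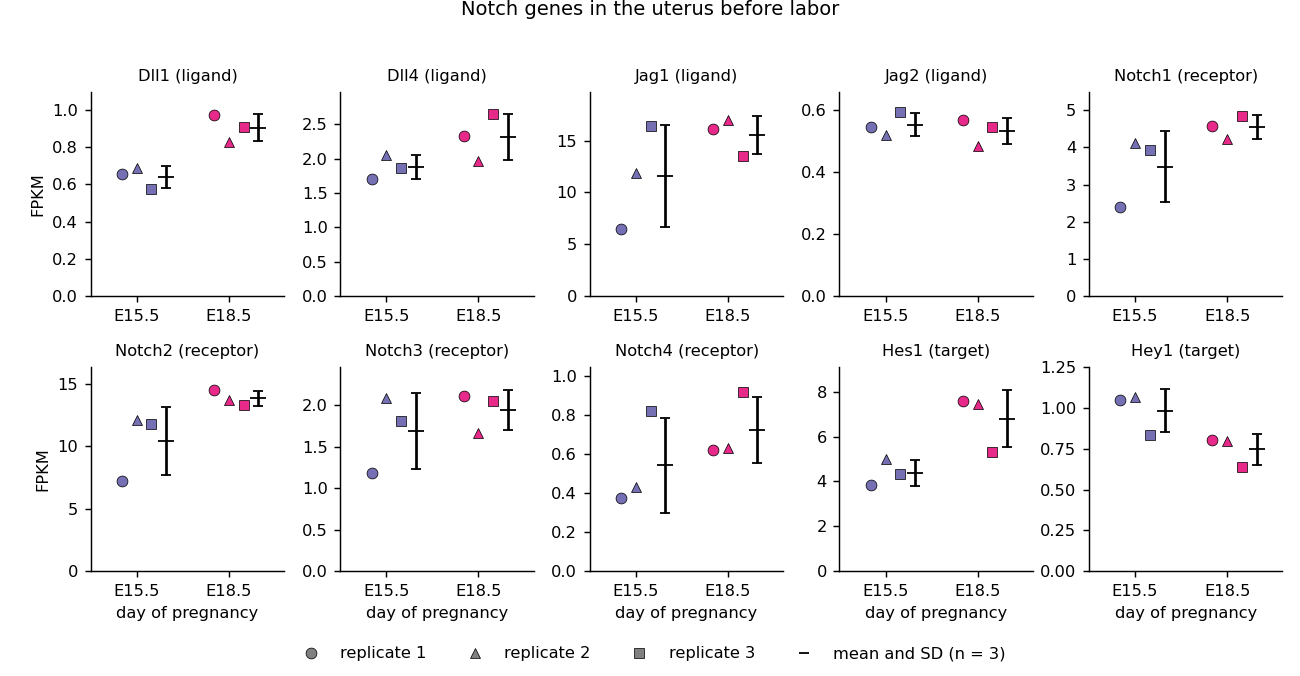
FPKM (y axis, from 0) of each Notch gene in the E15.5 and E18.5 libraries (x axis), 1 symbol per replicate, with the mean and SD of 3 mice beside them. E15.5 replicate 1 is the lowest of the 6 libraries for 7 of the 10 genes: Dll4 (1.71 FPKM), Jag1 (6.49 FPKM), Notch1 (2.40 FPKM), Notch2 (7.26 FPKM), Notch3 (1.18 FPKM), Notch4 (0.373 FPKM) and Hes1 (3.83 FPKM).

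Of the receptors, Notch2 was 14.5, 13.7 and 13.3 FPKM in E18.5 uteri and 7.26, 12.1 and 11.8 FPKM in E15.5 uteri. Notch1 was 4.58, 4.22 and 4.85 FPKM in E18.5 uteri and 2.40, 4.12 and 3.93 FPKM in E15.5 uteri. In both, the E18.5 libraries were the higher and E15.5 replicate 1, the library with the lowest yolk sac and the highest NK cell sum, was far below its group. The log2 fold change was 0.45 for Notch2 (adjusted p 0.45) and 0.41 for Notch1 (adjusted p 0.50), and without E15.5 replicate 1 the changes were 0.21 and 0.17. Notch3 was 2.11, 1.67 and 2.05 FPKM in E18.5 uteri and 1.18, 2.08 and 1.80 FPKM in E15.5 uteri. Its change of 0.22 became -0.0036 without E15.5 replicate 1 and 0.38 without E15.5 replicate 2, and its row in the labor table carries 1 of the 3 Ensembl transcripts that its implantation row carries. Notch4 was 0.621, 0.627 and 0.918 FPKM in E18.5 uteri and 0.373, 0.430 and 0.820 FPKM in E15.5 uteri, with overlapping groups. The Notch4 change of 0.40 was 0.22 without E15.5 replicate 1 and 0.70 without E15.5 replicate 3, and omission of E18.5 replicate 3 gave 0.24. The summed receptor level was 20.2 to 21.8 FPKM at E18.5 and 11.2 to 18.8 FPKM at E15.5, without overlap (exact permutation p = 0.1, adjusted p = 0.222), and the 2 E15.5 libraries other than replicate 1 were at 18.4 and 18.8 FPKM. The shares of Notch1, Notch2 and Notch4 overlapped between the days, with Notch2 at 63.0% to 67.8% at E18.5 and 64.3% to 64.7% at E15.5, and that of Notch3 was 8.23% to 9.72% against 9.82% to 11.1%.

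The summed ligand level was 17.6 to 20.3 FPKM at E18.5 and 9.40 to 19.4 FPKM at E15.5, with overlap (exact permutation p = 0.2, adjusted p = 0.364). Of the ligands, Jag1 was 16.1, 17.0 and 13.5 FPKM in E18.5 uteri and 6.49, 11.9 and 16.4 FPKM in E15.5 uteri. E15.5 varied widely, and its replicate 3 lay within the E18.5 range. The change of 0.51 ± 0.32 (SE; adjusted p 0.56) was 0.15 without E15.5 replicate 1 and 0.81 without E15.5 replicate 3. Dll1 was 0.973, 0.828 and 0.910 FPKM in E18.5 uteri and 0.656, 0.687 and 0.576 FPKM in E15.5 uteri. The 2 days stood apart, with a change of 0.44 ± 0.21 (SE; adjusted p 0.45). The ratio of its mean FPKM was 1.41, and at such levels the added 0.1 FPKM makes the fitted change smaller than that ratio. Dll4 was 2.32, 1.97 and 2.65 FPKM in E18.5 uteri and 1.71, 2.06 and 1.86 FPKM in E15.5 uteri, which overlapped, with a change of 0.28 that was 0.19 without E18.5 replicate 3. Jag2 was 0.567, 0.485 and 0.544 FPKM in E18.5 uteri and 0.546, 0.520 and 0.593 FPKM in E15.5 uteri. Thus the ligand with the largest change around implantation had the smallest before labor, -0.05 ± 0.23 (SE; adjusted p 0.95 in limma).

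The same marker lists were counted before labor, where 3.11% of all rows met the criterion higher and 2.93% lower at E18.5. The 13 endothelial markers summed to 120 to 148 FPKM at E18.5 and 182.9 to 208.2 FPKM at E15.5, but 7 of the 13 had a positive fitted change, with a median of 0.15, and 1 was called higher (Flt1) and 1 lower (Cdh5). Cdh5 had the highest level of the list, with means of 47.9 FPKM in E18.5 uteri and 111 FPKM in E15.5 uteri. The 5 arterial markers had a positive fitted change in 5 of 5, none by the criterion, with a median of 0.49 and sums of 13.1 to 14.6 FPKM against 7.63 to 11.1 FPKM. Of the 8 smooth muscle markers 7 had a positive fitted change, none by the criterion, with sums of 3560 to 4482 FPKM against 2935 to 3972 FPKM. In both of these lists E15.5 replicate 1 had the lowest sum of the 6 libraries. The 8 epithelial markers had a positive fitted change in 8 of 8, 4 of them by the criterion, with sums of 653 to 912 FPKM against 205 to 454 FPKM. The 205 FPKM was again E15.5 replicate 1, and the other E15.5 libraries had 319 and 454 FPKM. All 6 uterine NK cell markers were called lower at E18.5, with sums of 25.4 to 111 FPKM against 330 to 963 FPKM. Of 9 trophoblast and placenta markers 4 of the 6 tested were called higher at E18.5, with sums of 65.0 to 88.0 FPKM against 4.83 to 13.9 FPKM. A positive fitted change was found in 5 of 7 pericyte, 2 of 7 stroma, 3 of 5 macrophage and 1 of 6 proliferation markers, none by the criterion. E15.5 replicate 1 also had the lowest stroma and macrophage sums of the 6 libraries, 792 and 93.3 FPKM. The part of any of these lists in the Notch values was not tested.

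**Figure D4:**
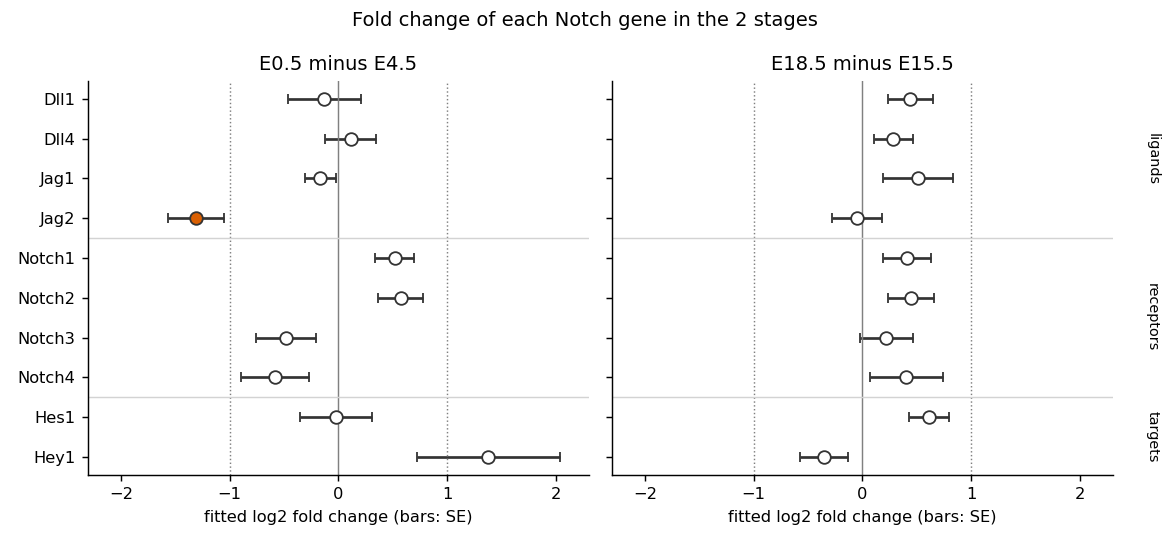
Fitted log2 fold change of each Notch gene (x axis, bars show SE) in the implantation table (left, E0.5 minus E4.5, edgeR) and the labor table (right, E18.5 minus E15.5, limma), with dotted lines at -1 and 1 and a filled circle for a gene that met the criterion of the study. Jag2 at -1.31 is the filled one, and 8 of the 10 values before labor lie above 0.

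The order of the genes by level per length was described within each table, since the tables were normalised separately. At E0.5 the order from the highest mean was Notch2, Notch1, Notch3, Jag1, Dll4, Hes1, Hey1, Notch4, Jag2 and Dll1. Neighbours overlapped between Notch3 and Jag1, between Dll4 and Hes1, between Hes1 and Hey1 and between Hey1 and Notch4, and were apart elsewhere. At E4.5 the first 4 were Notch2, Notch3, Notch1 and Jag1, each overlapping the next. In the labor table the order began with Jag1, Notch2, Hes1 and Notch1 on both days, Jag1 and Notch2 overlapped on both, and Jag2 was ninth at E15.5 and the lowest of the 10 at E18.5.

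Whether the change of a gene differed between the stages was tested as the difference of the 2 fold changes, E0.5 minus E4.5 against E18.5 minus E15.5, over all 12 libraries in limma. None of the 10 genes passed the adjusted p of 0.05, which 2.64% of the 22056 row pairs tested did, and 1 of 10 (Jag2) had an unadjusted p under 0.05, against 18.2% of all pairs. Jag2 came nearest, with a change of -1.20 around implantation and -0.05 before labor on this scale and a difference of -1.16 ± 0.32 (SE; adjusted p 0.079). With each of the 12 libraries left out its adjusted p ran from 0.031 to 0.17, and it passed 0.05 in 1 of these fits, the one without E4.5 replicate 2. For Hey1 the difference was 1.36 ± 0.75 (SE; adjusted p 0.37), which was 0.78 without E0.5 replicate 1 and became 2.12 with an adjusted p of 0.043 without E0.5 replicate 3, the 1 fit of 12 in which it passed. For Notch4 it was -0.96 ± 0.46 (SE; adjusted p 0.30). The median difference over all row pairs was -0.13. The values given here were tested against no difference, not against that median.

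Of 56 other genes of the Notch pathway, 51 were tested around implantation, of which 6 met the criterion, 3 higher and 3 lower at E0.5, or about the background of 12.2%. None of them passed the adjusted p, and 10 had an unadjusted p under 0.05, against 17% of all rows. Before labor 49 were tested, none met the criterion (6.05% of all rows did) or passed the adjusted p, and 4 had an unadjusted p under 0.05, against 12.2% of all rows. The median fitted change was -0.02 and 0.09 in the 2 stages. Without E4.5 replicate 3, 5 of the pathway genes met the criterion around implantation, against 14.4% of all rows. In that fit 5 passed the adjusted p in edgeR, against 6.28% of all rows. These were Aph1c, Dtx3l and Hes6, which were higher at E0.5, and Rbpj and Neurl1b, which were lower. Without E15.5 replicate 1, Dlk1 was the 1 pathway gene that met the criterion before labor, against 5.02% of all rows.

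The genes that met the criterion around implantation with a mean of at least 0.5 FPKM were targets, a protease and a ubiquitin ligase. Among the 4 other targets tested, Heyl, a Hey family repressor of vascular smooth muscle, was 1.74, 2.23 and 1.23 FPKM in E0.5 uteri and 5.28, 3.35 and 7.96 FPKM in E4.5 uteri. Every E0.5 library was below the E4.5 libraries. The fitted log2 change of Heyl was -1.65 (adjusted p 0.091), and -1.34 without E4.5 replicate 3. Hey2, a further Hey family member, was 0.357, 0.440 and 0.313 FPKM in E0.5 uteri and 0.929, 0.511 and 3.17 FPKM in E4.5 uteri. E4.5 replicate 3 was far above its group, and the change of -2.01 (adjusted p 0.19) was -0.99 without it, which no longer met the criterion. Hey2 also lost the call without E0.5 replicate 1 (-1.98) and without E0.5 replicate 3 (-1.92). Hes6, a Hes family member that counters Hes1, was 9.05, 5.87 and 7.88 FPKM in E0.5 uteri and 3.31, 2.12 and 4.85 FPKM in E4.5 uteri. Its E0.5 libraries were the higher ones, with a change of 1.16 (adjusted p 0.15). Without E4.5 replicate 2 the change was 0.90 and Hes6 no longer met the criterion. With all libraries the Hes and Hey genes did not share a direction, with Hey2 and Heyl lower at E0.5, Hes6 higher, and Hes1 and Hey1 not past the criterion. Hes2, Hes3, Hes5 and Hes7 were at or near 0 in both tables and were not tested.

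Among the 10 proteases of the pathway Aph1c, a gamma-secretase subunit, was 3.80, 3.37 and 3.38 FPKM in E0.5 uteri and 0.873, 1.24 and 1.81 FPKM in E4.5 uteri. The E0.5 libraries lay above all E4.5 libraries, with a change of 1.45 (adjusted p 0.058). Its near-identical neighbour Aph1b was at 2.06 to 2.88 FPKM and 2.16 to 4.22 FPKM, and since reads may be split between such copies both values are uncertain. Among the 14 ubiquitin ligases and endocytic regulators Dtx3l, a Deltex family ligase that is also interferon-induced, was 12.3, 15.9 and 17.5 FPKM in E0.5 uteri and 5.81, 6.35 and 3.41 FPKM in E4.5 uteri. These groups did not overlap either, with a change of 1.56 (adjusted p 0.064).

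**Figure D5:**
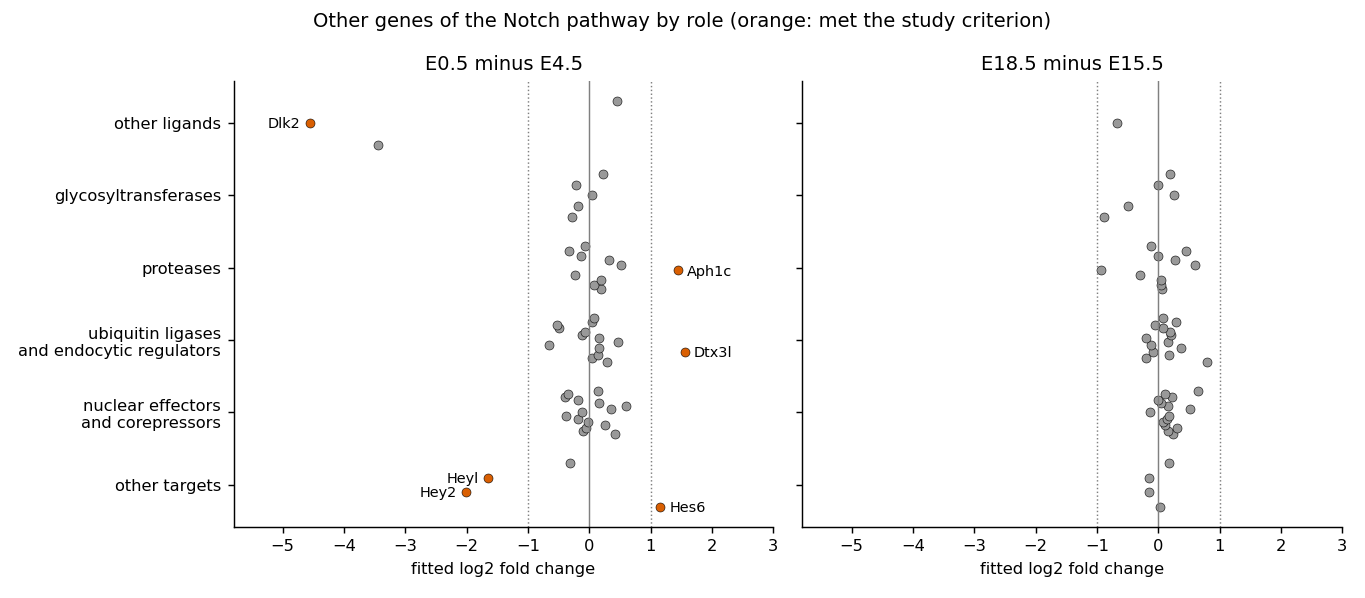
Fitted log2 fold change (x axis) of the tested genes of the Notch pathway other than the 10, in rows by role, around implantation (left, E0.5 minus E4.5) and before labor (right, E18.5 minus E15.5), with dotted lines at -1 and 1. The 6 genes in orange met the criterion of the study around implantation, no gene did before labor, and the far left values of Dlk2 and Dlk1 belong to genes with a mean under 0.5 FPKM.

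In the remaining groups no gene with a mean of at least 0.5 FPKM met the criterion. Among the other ligands Dlk2 met it at very low levels, with 0, 0 and 0.055 FPKM in E0.5 uteri and 0.615, 0.815 and 0.044 FPKM in E4.5 uteri. It met the criterion in 2 of the 6 fits that left out 1 library, those without E0.5 replicate 3 and without E4.5 replicate 3, and in the other 4 its fitted change stayed between -4.31 and -3.96 while p rose past 0.05. Dll3 was at or near 0. None of the 5 glycosyltransferases, which include the Fringe enzymes that tune ligand choice, met the criterion in either stage. Of the 15 nuclear effectors and corepressors none did so either, and 13 of the 15 had a positive fitted change before labor (52.3% of all rows did), with a median of 0.16 against 0.02 over all rows. Without E15.5 replicate 1 this was so for 11 of the 15, against 53.8% of all rows. In 3 of the 15, those of Maml2, Ctbp2 and Ep300, the row carries another gene name as well and the reads cannot be separated. Rbpj, the DNA-binding partner of all Notch receptors, was 3.78, 3.74 and 3.69 FPKM in E0.5 uteri and 6.06, 5.90 and 2.74 FPKM in E4.5 uteri. Replicates 1 and 2 of E4.5 were above all E0.5 libraries and replicate 3 was below them. The log2 change was -0.39 (adjusted p 0.57), and -0.69 (adjusted p 0.029) without replicate 3. Neurl1b, a ubiquitin ligase of the Neuralized family that acts on Notch ligands, was 3.32, 3.04 and 3.21 FPKM in E0.5 uteri and 6.01, 5.11 and 2.65 FPKM in E4.5 uteri. It had the same arrangement, with a change of -0.53 (adjusted p 0.44) that became -0.82 (adjusted p 0.037) without replicate 3. Before labor Rbpj was 4.61, 4.24 and 4.01 FPKM in E18.5 uteri and 3.41, 3.76 and 3.79 FPKM in E15.5 uteri, with a change of 0.22 (adjusted p 0.53).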

How the data were processed

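Whole-uterus RNA of 12 mice, 3 per day, was sequenced. The labels describe poly(A) selection, whereas the study's methods describe rRNA depletion. The submitters' processing notes name HISAT2 2.0, StringTie 1.3.0, Bowtie 0.12.2 and the builds mm8 and mm10; all 10 Notch rows of the implantation table overlap their RefSeq genes on GRCm38 (mm10). The authors deposited FPKM for both stages and whole-number counts for implantation. These deposited counts were treated as estimated counts, because in 11927 of 11930 rows with at least 500 counts in each library the ratio of count to FPKM was constant within 1% after a library factor. Unnamed rows took up 1.02% to 1.86% of the counts. Testing required a mean of 0.1 FPKM or more, implantation with edgeR 4.0.16 (TMM, quasi-likelihood) and labor with limma 3.58.1 (trend) on log2(FPKM + 0.1), with Benjamini-Hochberg adjustment over all rows in R 4.3.3; the scripts were tested on simulated data. The SE of an edgeR change is its size divided by the root of its F statistic. P-values measure the spread between single mice. The Notch genes, pathway list and marker lists were chosen with earlier results of these data known. Named were the 10 genes, pathway genes past the adjusted p, the 4 largest changes per stage and direction that met the study criterion with a mean of at least 0.5 FPKM, and the 2 genes most like a called Notch gene; Aph1b, Dlk1, Dlk2, Rbpj, Neurl1b, Dll3, the nuclear effectors on merged rows, the called marker genes and the Hes genes near 0 were added after their values were seen. Alternatives were DESeq2 1.42.0 as test or scaling, other filters, pseudocounts and scalings, the replicate number as a block, and omission of each library; gene-named rows only and 1 pair per row were added after seeing the data.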

Additional observations from a re-analysis of the deposited data

Results flagged for a closer look

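Both pathway genes whose day effect differed between the stages after adjustment over all row pairs in limma lay outside the 10 Notch genes. They were among the 49 pathway genes tested before labor, all of which were compared between the stages. Of all row pairs 2.64% passed the same adjusted p, so the number of pathway genes that did is close to the background. For Aph1c the difference of the log2 fold changes (E0.5 minus E4.5 less E18.5 minus E15.5) was 2.34 ± 0.40 (SE, adjusted p 0.016). It came from 1.41 around implantation and -0.93 before labor, and reads that may be split with Aph1b make it uncertain. For Dtx3l it was 1.66 ± 0.32 (SE, adjusted p 0.026), from 1.57 and -0.09.

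Rows without an Ensembl transcript that carry the name of a Notch gene were left out of all values above, and 6 of them held counts in the implantation table. Their highest count in a library was 877 for a 3239 base row on the strand of Notch3 inside that gene and 429 for a 2495 base row inside Notch3 (chr17:32125750-32128244) on the opposite strand. It was 130 and 82 for the 2 rows inside Jag2, 53 for the row inside Notch4 and 54 for a row 614 bases past the end of Jag1, and these 4 rows have no strand. The opposite-strand row of Notch3 was at 0.482, 0.993 and 0.619 FPKM at E0.5 and at 1.89, 1.58 and 2.12 FPKM at E4.5, without overlap, and met the study criterion (fitted change -1.40 on the log2 scale, adjusted p 0.12 in edgeR). The 649 base row inside Jag2 was at 0.406, 0.380 and 0.519 FPKM at E0.5 and at 2.35, 0.771 and 1.17 FPKM at E4.5, and met it as well (-1.69, adjusted p 0.22).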

How the results depend on the processing

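Under other tests, filters, scalings and pseudocounts, 3 gene values crossed the threshold (Hey1 in DESeq2, Dlk2 and Hey2 in limma) and the others kept their sign and their side of it. Their sizes moved: before labor Dll1 ran from 0.22 to 0.49, Notch4 from 0.17 to 0.47 and Hey1 from -0.42 to -0.18. Notch2 moved less, from 0.38 to 0.45. DESeq2 called 2 Notch genes around implantation (Jag2 and Hey1), against 14.5% of all rows. It put 1 Notch gene (Jag2) and 6 pathway genes past the adjusted p, against 9.74% of all rows. Of the pathway genes limma put 1 past it (1.51% of all rows) and a minimum of 1 FPKM put 2 (3.07%). Over all rows 5816 passed the adjusted p in DESeq2 and 730 in edgeR. With each library left out, the Notch genes called around implantation numbered 1 to 2, those past the adjusted p 0 to 2 and those with an unadjusted p under 0.05 1 to 3; the pathway genes past the adjusted p numbered 0 to 5. Before labor the Notch genes with an unadjusted p under 0.05 numbered 0 to 2 and the pathway genes called 0 to 2, and between the stages 0 to 1 Notch genes differed. Over all rows the implantation calls past the adjusted p ranged from 0 without E0.5 replicate 2 to 3652 without E4.5 replicate 3, where Jag2, Notch2 and, of the pathway, Rbpj and Neurl1b were among the genes past it. With each library left out, log2 changes that turned were near 0: around implantation Dll1 ran from -0.33 to 0.17 (positive without E4.5 replicate 1), Dll4 from -0.076 to 0.25 (negative without E4.5 replicate 3) and Hes1 from -0.26 to 0.20 (0.20 without E4.5 replicate 1, 0.18 without E0.5 replicate 2); before labor Jag2 ran from -0.088 to 0.0065 (positive without E18.5 replicate 2) and Notch3 from -0.0036 to 0.38 (negative without E15.5 replicate 1); between the stages Notch1 ran from -0.038 to 0.34 (negative without E15.5 replicate 2, and -0.0031 without replicate 3) and Notch2 from -0.053 to 0.37 (negative without E4.5 replicate 1). The replicate numbers do not pair the mice: no source describes a pairing, and deviations of same-numbered libraries correlated between -0.07 and 0.02. A replicate block left 1 Notch gene with an unadjusted p under 0.05 around implantation (Jag2, adjusted p 0.18 in edgeR). Under it 1 Notch gene and 5 pathway genes were called, against 10.4% of all rows, and none of all rows passed the adjusted p. Dlk2 (-5.37) and Hey2 (-1.62) lost their call under the block on p alone, and Dlk1, under 0.5 FPKM, gained a call, lower at E0.5. Causes were not tested. Depth limits Dll1 most among the Notch genes around implantation.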
